A study of Mus musculus with 2 samples.

Results

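Krtap genes encode the keratin-associated proteins of hair. All genes whose symbol on the array platform begins with Krtap were taken, whatever their values, which gave 51 genes out of 22180 with a probe of their own. They were grouped by family number into 17 high glycine-tyrosine genes, 8 high sulfur genes, 20 ultrahigh sulfur genes and 6 genes of other families. The classes here rest on family number alone, and protein composition was not examined. Affymetrix arrays had been run on RNA from the dorsal skin of female mice of the inbred, dermatitis-prone strain NC/Nga, aged 6 weeks at the start and 13 weeks at sampling. Both groups received an ointment of Dermatophagoides farinae (house dust mite) body extract for 6 weeks, with 2 applications a week, to induce dermatitis. The group called ZAG here also received recombinant ZAG, zinc-alpha-2-glycoprotein, topically at 1 µg/mL on the same schedule, and the group called control carries the label control with no vehicle named.

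The design text gives 3 mice per group, but the values used here are 1 column per group, and the sources used here do not give whether a column is 1 mouse, a pool or a mean. There is therefore no replicate error: every difference below describes these 2 arrays, no p-value can be given, and whether a difference exceeds the spread between mice cannot be stated. The defining epidermal markers measured here were far above background on both arrays, among them the basal keratin gene Krt14 at 11.35 in control and 10.62 with ZAG and the suprabasal keratin gene Krt10 at 12.15 and 12.16, except for Krt2, which was near background at 3.31 and 3.14. In skin RNA, a higher hair transcript from more hair-forming cells and one from more RNA per cell cannot be told apart.

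The hair shaft is built in the growing follicle, where cells of the cortex and cuticle fill first with hair keratins and then with keratin-associated proteins. The latter form the matrix between the keratin filaments: the sulfur-rich classes bond to keratin by disulfide links through their many cysteines, and the high glycine-tyrosine class consists of small proteins rich in those residues. Their genes are short and lie in clusters of close relatives, and they are transcribed mainly in follicles that are making a shaft, that is in the growth phase called anagen.

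Promoter sequences show one property that most, but not all, members share. Of the 51 genes, 46 have an entry in a RefSeq promoter table (build GRCm38.p6). The motif TATAAA, the core of the TATA box at which transcription factor IID binds, was searched on either strand in the 250 bases before each start. It was present in 82.6% of these 46 promoters, against 12.4% of all 32851 promoters of the same length. On the sense strand and starting 40 to 20 bases before the start, it was present in 60.9% of Krtap promoters and 1.99% of all promoters. The 100 bases before the start are shown for the 2 genes with the largest differences between the arrays, for a gene with almost none and for the gene with the lowest difference. Capitals mark TATAAA.
Krtap6-3, chr16:89083924-89084023, plus strand: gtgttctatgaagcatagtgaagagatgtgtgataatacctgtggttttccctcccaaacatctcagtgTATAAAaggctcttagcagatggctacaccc
Krtap16-3, chr16:88962874-88962973, minus strand: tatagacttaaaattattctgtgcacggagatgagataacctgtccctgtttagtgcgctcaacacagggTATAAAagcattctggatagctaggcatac
Krtap26-1, chr16:88647797-88647896, minus strand: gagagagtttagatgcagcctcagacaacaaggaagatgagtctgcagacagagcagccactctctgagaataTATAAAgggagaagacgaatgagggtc
Krtap5-2, chr7:142176006-142176105, minus strand: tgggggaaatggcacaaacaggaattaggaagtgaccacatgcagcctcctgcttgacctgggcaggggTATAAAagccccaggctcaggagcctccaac

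In these promoters TATAAA starts 31, 30, 27 and 31 bases before the start, in the order shown. Over all members with a promoter entry, 28 genes had the motif in the 40 to 20 base window. Their median log2 difference (ZAG minus control) was 0.71, against 0.91 in the 18 without it. The ranges, -0.27 to 2.84 and -0.15 to 1.66, overlap. Krtap6-1 (1.66) and Krtap16-1 (0.0057) were among those without it. The motif stood in that window in 43.8% of 16 high glycine-tyrosine, 57.1% of 7 high sulfur and 70.6% of 17 ultrahigh sulfur promoters. It stood there in 83.3% of 6 promoters of other families. The comparison therefore mixes motif and class. CTTTGA, a core recognised by the follicle factor LEF1, was present on either strand in 23.9% of Krtap promoters and 13.8% of all promoters. By class it stood in 5 of 16 high glycine-tyrosine (31.2%), 4 of 7 high sulfur (57.1%) and 1 of 17 ultrahigh sulfur (5.88%) promoters. TTAAT, a homeodomain core, was present in 58.7% of Krtap promoters and 24.9% of all. Neither motif contains TATAAA or lies within it, and a match describes letters only, not binding.

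Hair keratin-associated protein genes were mostly higher in ZAG-treated skin. The log2 difference was above 0 in 46 of the 51 genes, against 51.8% of all genes, and its median was 0.75 (1.68-fold), against 0.01 over all genes. The interquartile range of the members ran from 0.38 to 1.04. Rescaling the arrays left 44 to 47 of the 51 genes higher, since Krtap16-1, Krtap26-1 and Krtap9-5, which hardly differed, changed sign. As a scale for probe error, the pooled SD of the difference between probes of one gene was 0.244. It came from 591 genes with several probes whose mean level reached the median of all genes, so dimmer genes did not enter it. It says nothing of differences between mice. By that measure 41 Krtap genes were higher by more than 1 SD (18.2% of all genes were) and 1 was lower by more than 1 SD (17.7% of all genes).

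As a background gauge, the 95th percentile of mean level over 1394 receptor genes of the olfactory and vomeronasal families was used, which was 3.16. Krtap20-2 (1.60 in control, 2.74 with ZAG) and Krtap13 (1.55 and 1.40) fell short of it in both groups and are given no fold. Without these 2 genes the median was again 0.75. Of the 51 genes, 47 reached the median level of all genes (3.87) in the mean of the arrays. The others, besides Krtap20-2 and Krtap13, were Krtap12-1 and Krtap5-5, both placed in the ultrahigh sulfur class.

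Among those 47, 13 were at least 2-fold higher with ZAG, where the background is 0.271% of 11090 genes. None (0) was lower by that much, where the background is 1.15%. The 13 genes were spread over the classes as 9 high glycine-tyrosine, 2 high sulfur, 2 ultrahigh sulfur and 0 of other families. At 1.5-fold the count was 31 of 47 higher (2.48% of all genes at that level) and 0 lower (5.08%). The 2-fold limit ran through a continuous series of members. Just inside it stood Krtap22-2 (1.03), Krtap5-3 (1.05) and Krtap6-5 (1.11). Just outside stood Krtap9-3 (0.998), Krtap19-5 (0.98) and Krtap31-2 (0.96).

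**Figure D1:**
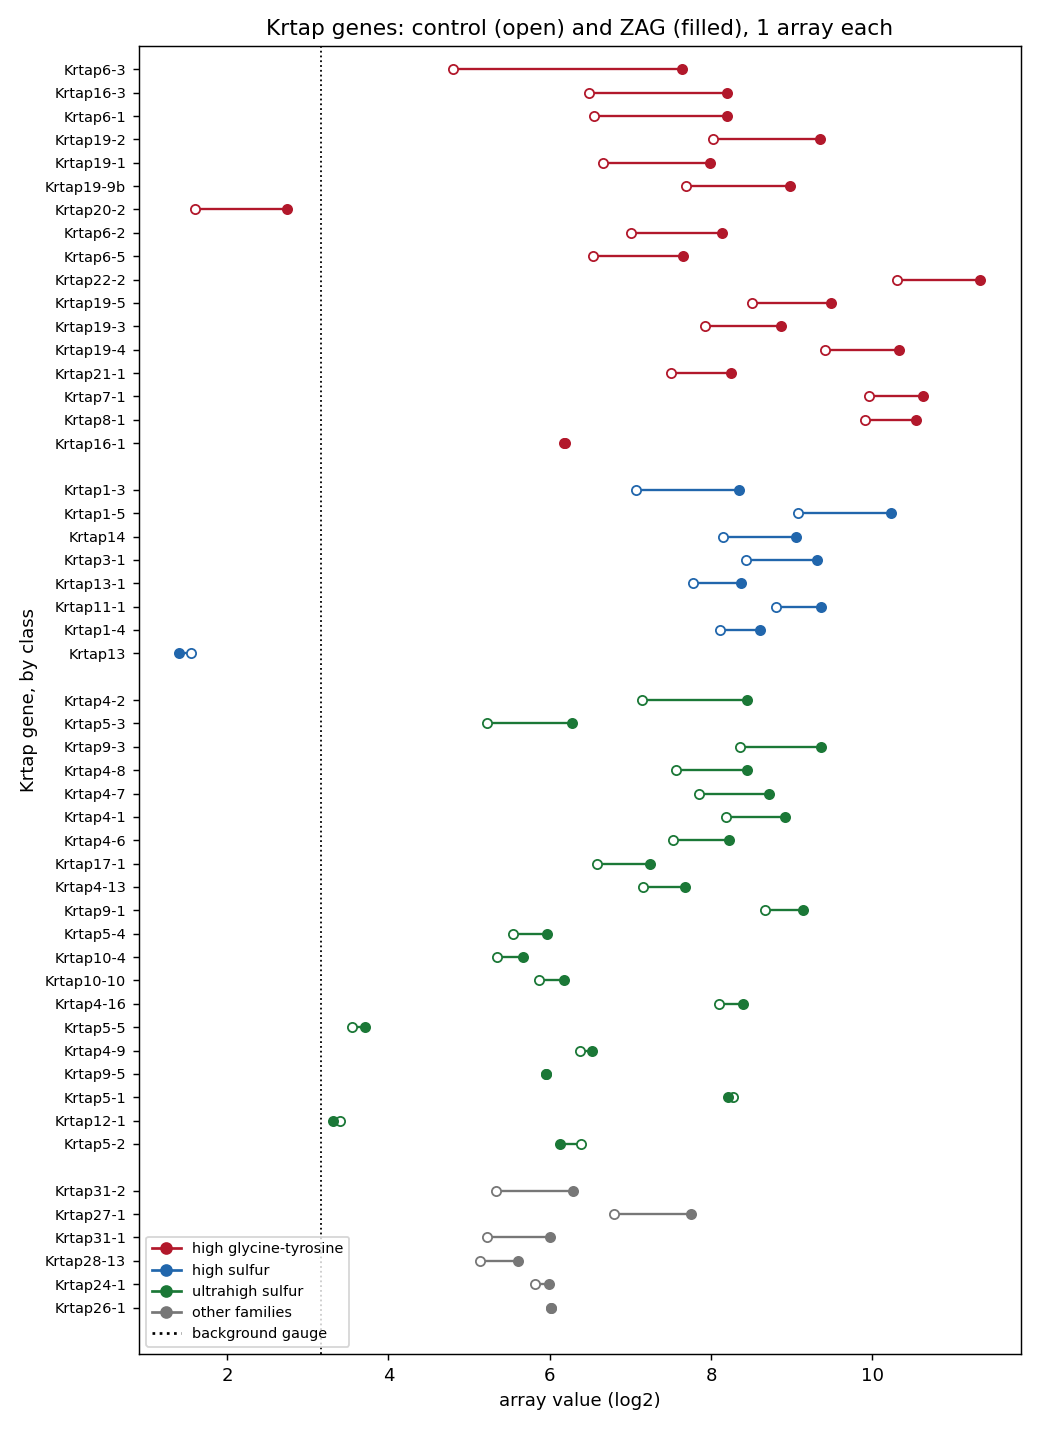
Log2 array value of each of the 51 Krtap genes on the control array (open circles) and the ZAG array (filled circles), 1 array per group, ordered within class by the difference; the dotted line is the background gauge of 3.16. In 46 genes the filled circle lies to the right of the open one, and Krtap6-3 has the longest line, from 4.81 to 7.64.

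**Figure D2:**
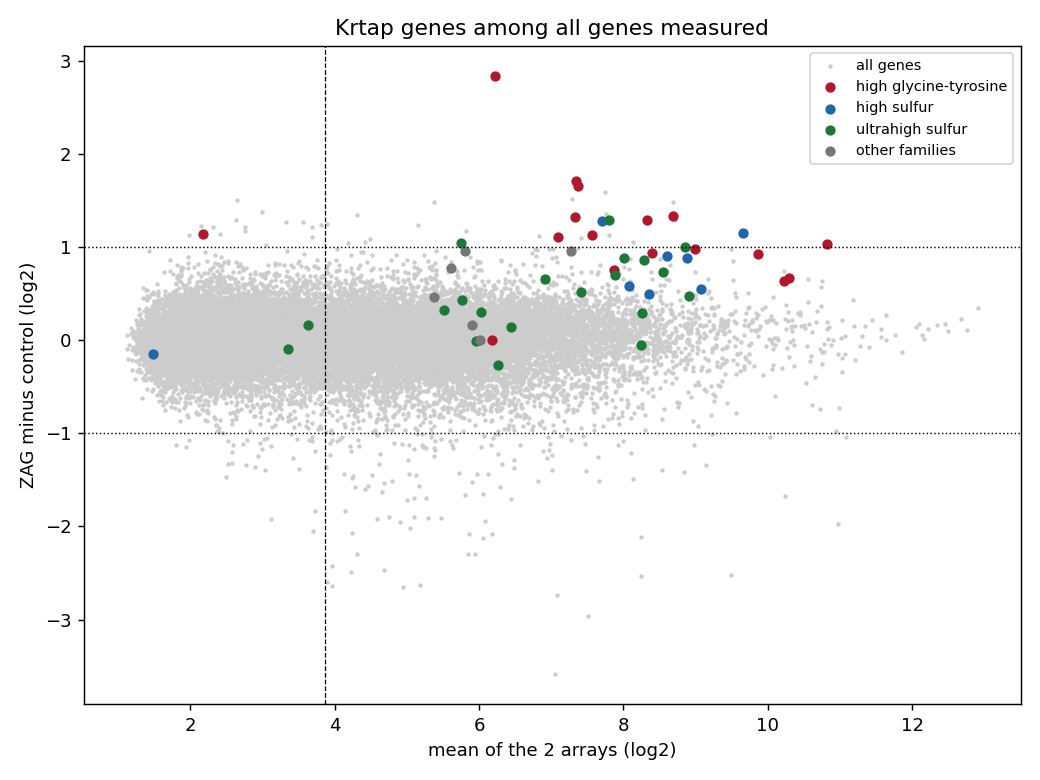
Log2 difference (ZAG minus control, vertical) against the mean log2 level of the 2 arrays (horizontal) for all 22180 genes in grey and the Krtap genes in colour by class; dotted lines mark 2-fold and the dashed line the median level of 3.87. Most Krtap genes lie along the upper edge of the grey cloud, with Krtap6-3 the highest point at 2.84.

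High glycine-tyrosine genes differed most. All 17 were higher with ZAG as deposited (16 after median centring or loess, which turned Krtap16-1), with a median log2 difference of 1.11 (2.16-fold) and a range from 0.0057 to 2.84. Of the 16 that reached the median level, 9 passed 2-fold and 15 passed 1.5-fold. No test of a difference between the classes is possible with 1 array per group.

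The Krtap6 family held 4 measured genes, all of them at least 2-fold higher. Krtap6-3 was at 4.81 in control and 7.64 with ZAG, and this log2 difference of 2.84 (7.16-fold) was at rank 1 among the 11090 genes that reached the median level. Krtap6-1 was at 6.55 and 8.20 (3.15-fold, rank 3). These single-probe values carry a limit: a further probe shared by Krtap6-1 and 2 other genes, Gm10228 and 1110025L11Rik, read 11.40 and 12.18, and its difference was 0.78. The estimates for Krtap6-1 thus differ by more than 3 times the probe SD, and values of single members in families of close copies are uncertain.

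Krtap6-2 was at 7.003 in control and 8.13 with ZAG, and Krtap6-5 at 6.54 and 7.65. Both differences, 1.13 and 1.11, were well under that of Krtap6-3. Without Krtap6-3 the median over the remaining 50 Krtap genes was 0.74.

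Krtap19 genes, with 6 measured members, lay close together. Their differences lay between 0.93 and 1.33, with a between-gene SD of 0.20, against 0.81 in the Krtap6 family. Krtap19-2 was at 8.02 in control and 9.35 with ZAG (2.52-fold) and Krtap19-1 at 6.66 and 7.99 (2.51-fold). Krtap19-9b followed at 7.68 and 8.98. The other members stayed just under 2-fold: Krtap19-5 was at 8.51 and 9.49, Krtap19-3 at 7.93 and 8.87, and Krtap19-4 at 9.41 and 10.33.

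The families with 1 or 2 measured genes spanned the class. Krtap16-3 was at 6.49 in control and 8.20 with ZAG, which is 1.71 apart (3.28-fold, rank 2). Its namesake Krtap16-1 read the same on both arrays, 6.18 and 6.19. Krtap16-1 also stands apart by position. It lies in the chromosome 11 cluster among ultrahigh sulfur genes, while the other 16 genes of the class lie on chromosome 16. The place of Krtap16-1 in the class rests on family number alone and is uncertain. Without Krtap16-1 the class median was 1.12 and the lowest difference 0.64. With Krtap16-1 kept and Krtap20-2, below the gauge on both arrays, left out instead, the class median was 1.07.

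Krtap22-2 was at 10.31 in control and 11.34 with ZAG, and its difference of 1.03 was under 2-fold with quantile normalization (0.96) and loess (0.92). Krtap7-1 (9.96 and 10.63) and Krtap8-1 (9.90 and 10.54), each the single gene of its family, were 1.59-fold and 1.55-fold higher. Krtap21-1 was at 7.50 and 8.25. Values of different probes do not rank transcripts, so only the differences are compared between genes.

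High sulfur genes, whose products carry the cysteines that cross-link the cortex, came next. Of 8 genes, 7 were higher and the median difference was 0.74 (1.67-fold). The dim Krtap13, below the gauge on both arrays, was the exception, and without it the median was 0.88. The Krtap1 family led the class. Krtap1-3 was at 7.07 in control and 8.34 with ZAG (2.43-fold), and Krtap1-5 at 9.08 and 10.23 (2.22-fold). The third member, Krtap1-4, differed less, at 8.11 and 8.60 (1.41-fold).

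Krtap14 was at 8.15 in control and 9.05 with ZAG, and Krtap3-1 at 8.43 and 9.32. These differences of 0.90 and 0.88 were almost equal although the genes lie in different clusters. Krtap13-1 (7.78 and 8.37) and Krtap11-1 (8.80 and 9.36) were higher by 0.59 and 0.55.

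Ultrahigh sulfur genes were the largest class and held 4 of the 5 members below 0, of which 1 was lower by more than the probe SD. Their median difference was 0.45 (1.37-fold) over 20 genes, with 16 higher and 4 lower, and 8 of the 18 genes that reached the median level passed 1.5-fold. Of those 8 genes, 5 belonged to the Krtap4 family. All 8 of its measured genes were higher, with a median of 0.71. Krtap4-2 was at 7.15 in control and 8.44 with ZAG (2.45-fold), while Krtap4-9, at 6.38 and 6.52, differed by 0.14, less than the probe SD.

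Between these stood Krtap4-8 (0.89), Krtap4-7 (0.86), Krtap4-1 (0.73), Krtap4-6 (0.70), Krtap4-13 (0.52) and Krtap4-16 (0.29). Krtap9 genes were as uneven: Krtap9-3 was at 8.36 and 9.36, Krtap9-1 at 8.67 and 9.14, and Krtap9-5 at 5.95 on both arrays. The difference of Krtap9-5 was -0.0052 as deposited and changed sign under rescaling, from -0.032 to 0.020. Krtap17-1, the single member of its family, was at 6.59 and 7.24.

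The Krtap5 family, whose products are known from the hair cuticle, differed from the Krtap4 family in these values, with a median of 0.16 over 5 genes. Krtap5-3 was higher by 1.05, from 5.23 in control to 6.27 with ZAG. Krtap5-2 was at 6.39 and 6.13, the lowest difference of all 51 members (-0.27) and the only one below 0 by more than the probe SD. Krtap5-1, measured by 2 probes with differences of -0.0062 and -0.10, was at 8.27 and 8.22. Krtap5-4 differed by 0.43 and the dim Krtap5-5 by 0.16.

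Krtap10 and Krtap12 genes, which the grouping by family number also placed in the ultrahigh sulfur class, showed small differences. Krtap10-4 was at 5.35 in control and 5.67 with ZAG, and Krtap10-10 at 5.87 and 6.18. Krtap12-1 was close to the gauge, at 3.40 and 3.31.

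Other families are those whose number the grouping did not assign to a class, and their protein type was not examined. Their median difference was 0.62 over 6 genes. All were above 0 as deposited and 5 of 6 after median centring or loess, which turned Krtap26-1. The difference was 0.96 in Krtap31-2 (5.33 in control, 6.29 with ZAG) and also 0.96 in Krtap27-1 (6.80 and 7.75). Krtap31-1 was higher by 0.77 and Krtap28-13 by 0.46. Krtap24-1 (0.17) and Krtap26-1 (0.0030, 6.02 on both arrays) were within the probe SD.

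Besides the genes with probes of their own, 10 probes carried a Krtap symbol together with other symbols and were kept apart. Of these, 9 were higher with ZAG. Among all genes with a probe of their own 51.8% were higher, and the share over all shared probes was not computed. Several of the 10 probes carry the same Krtap symbols, so they are not separate genes. The 2 probes shared by Krtap3-2 and Krtap3-3 differed by 0.75 and 0.83, close to Krtap3-1 of the same family. Of the 3 probes shared by Krtap2-4, Gm11937 and Gm11938, 2 differed by 0.91 and 0.92 and the third by 0.58. The probe of Krtap15 and the long non-coding RNA gene 4930553J12Rik was at 10.29 in control and 10.94 with ZAG.

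For genes that also have a probe of their own, the shared probes did not always give the same value. Those shared by Krtap4-13 differed by 0.31 and 0.48, beside 0.52 on its own probe. The probe that names Krtap10-4 among 14 genes differed by -0.14, which is within the probe SD. The gene's own probe differed by 0.33, of opposite sign and above the probe SD.

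**Figure D3:**
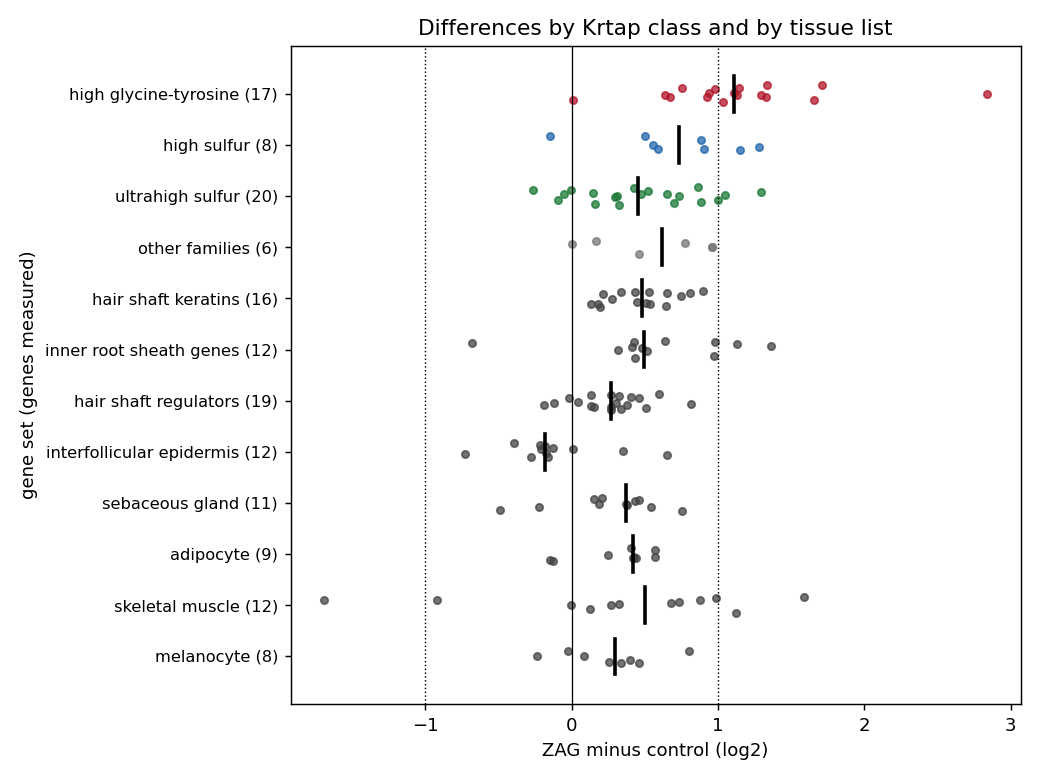
Log2 difference (ZAG minus control) of each gene (points) in the 4 Krtap classes and in 8 marker lists, with the number of genes measured in brackets; black bars are medians, the solid line is 0 and dotted lines are 2-fold. The high glycine-tyrosine median of 1.11 lies to the right of all other medians, and only the interfollicular epidermis median (-0.18) lies below 0.

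Position along the genome followed the classes in part. Of the 51 genes, 23 lie in the chromosome 16 cluster, 19 in the chromosome 11 cluster, 5 on chromosome 7, 3 on chromosome 10 and 1 on chromosome 1 (RefSeq gene table, GRCm38.p6). The median difference was 0.96 on chromosome 16, 0.73 on chromosome 11, 0.31 on chromosome 10 and 0.16 on chromosome 7. Within the chromosome 16 cluster the 16 high glycine-tyrosine genes had a median of 1.12 and the 4 high sulfur genes 0.57.

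High sulfur genes of the chromosome 11 cluster, 4 in number, had a median of 1.02, nearer to the high glycine-tyrosine genes than to their class members on chromosome 16. Within the ultrahigh sulfur class the 12 genes on chromosome 11 had a median of 0.68, the 5 on chromosome 7 a median of 0.16 and the 3 on chromosome 10 a median of 0.31. Near-zero and high values stood side by side in both large clusters. Krtap26-1 (0.0030) is next to Krtap27-1 (0.96) among the measured genes, and Krtap9-5 (-0.0052) next to Krtap31-2 (0.96). Elsewhere in the chromosome 16 cluster, Krtap19-9b, Krtap16-3, Krtap22-2, Krtap6-1, Krtap6-5 and Krtap6-3 follow one another in gene order and were all at least 2-fold higher as deposited.

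**Figure D4:**
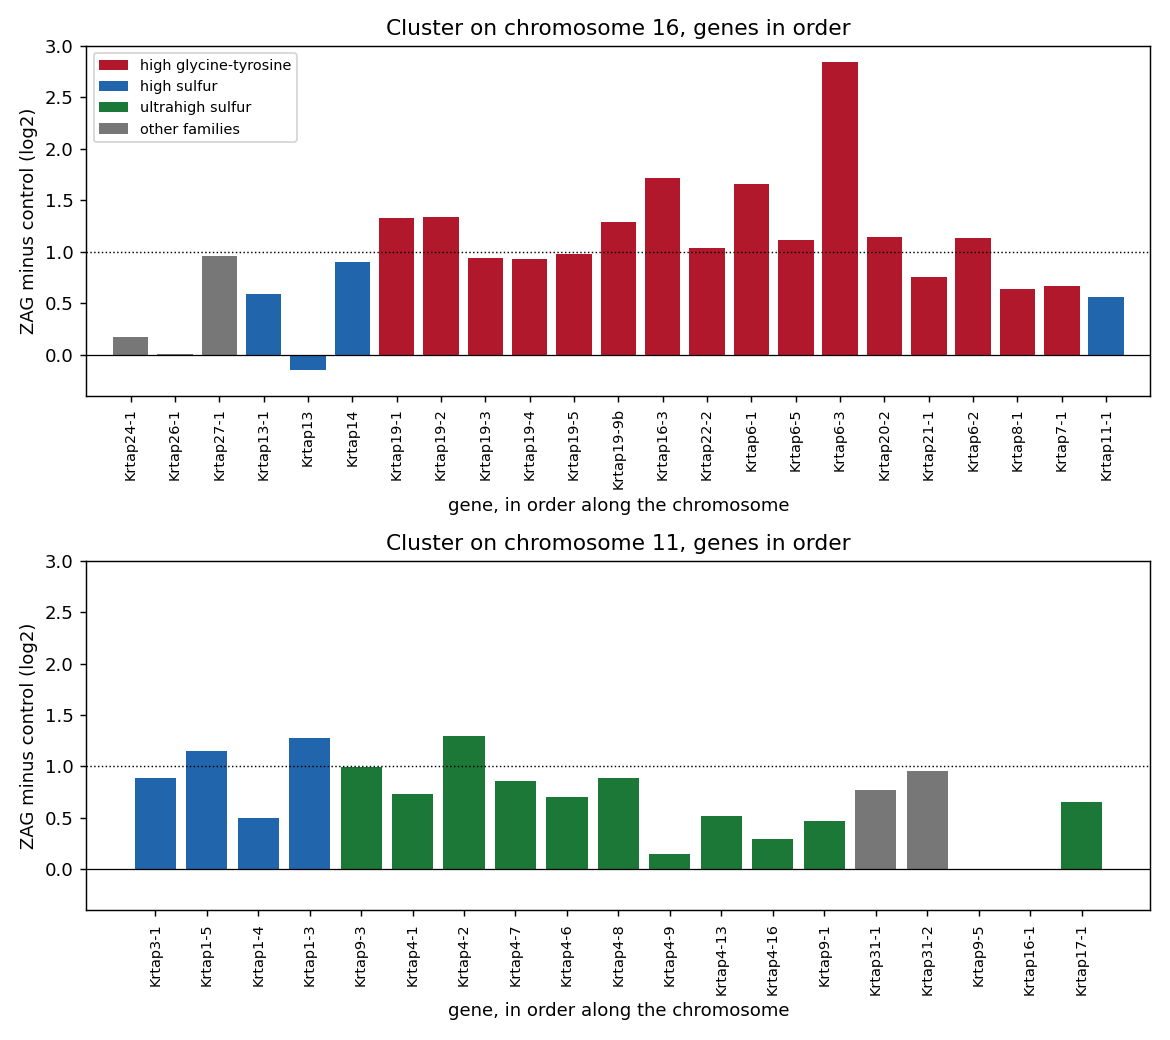
Log2 difference (ZAG minus control, bars from 0) of measured Krtap genes in their order along the chromosome 16 cluster (top, 23 genes) and the chromosome 11 cluster (bottom, 19 genes), coloured by class; the dotted line is 2-fold. The run from Krtap19-9b to Krtap6-3 lies above 2-fold, as does the next bar, Krtap20-2, which was below the gauge on both arrays, and Krtap26-1, Krtap9-5 and Krtap16-1 have bars too short to see.

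Other genes of the hair programme were mostly higher too, with list medians below the 0.75 of all Krtap genes. The medians of hair shaft keratins and inner root sheath genes were slightly above the ultrahigh sulfur Krtap median of 0.45. Of all genes 51.8% were higher, and 0.271% of genes that reached the median level passed 2-fold. Hair shaft keratin genes, whose filaments the keratin-associated proteins embed, had a median difference of 0.48 over 16 measured genes, with all 16 higher, under each scaling too, and 0 of the 15 that reached the median level past 2-fold. Krt39 (0.90), Krt31 (0.81) and Krt83 (0.74) had the largest differences. Krt32 (0.13), Krt88 (0.18) and Krt82 (0.19) had the smallest.

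Inner root sheath genes, active in the layer that moulds the growing shaft, showed a median difference of 0.50 for 12 genes, of which 11 were higher and 2 passed 2-fold. Tchhl1, a trichohyalin-like gene, was at 7.07 in control and 8.43 with ZAG. Krt26 differed by 1.13 and Krt72 by 0.98. Tgm3, a transglutaminase gene active in the follicle and in the epidermis, went the other way, at 8.40 and 7.72.

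Regulators and late genes of shaft formation showed a smaller median of 0.27 for 19 genes, of which 16 were higher and 0 passed 2-fold. Shh, among the higher genes, was below the gauge on both arrays (2.58 in control, 2.85 with ZAG). With quantile normalization, which turned Foxn1, 17 were higher. Fgf5, the gene of a growth factor that ends anagen, was at 4.54 in control and 5.36 with ZAG. Hoxc13, a homeodomain factor gene required for hair keratin and Krtap expression, was at 6.36 and 6.96. Dsg4, the gene of a desmosomal cadherin of the shaft, differed by 0.51. Foxn1, whose loss gives nude mice, was at 6.06 and 6.04, and Ovol1 (-0.12) and Prdm1 (-0.19) were the lowest.

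Markers of other skin compartments moved beside the Krtap genes, and their part in the result was not tested. Of all genes 51.8% were higher, and counts out of 8 to 12 genes per list are coarse beside that share. Interfollicular epidermis had a median difference of -0.18 over 12 genes (9 lower), from Krt14 at -0.73, Dsp at -0.40 and Dsc1 at -0.28 to Krt10 at 0.01 (below 0 under each rescaling), Dsg1a at 0.35 and Ivl at 0.65. Sebaceous gland genes, which belong to the same pilosebaceous unit, had a median of 0.37 over 11 genes (9 higher), with Scd3 at 0.75, Mc5r at 0.54 and Fabp5 at -0.49. Adipocyte genes, which mark the fat layer under the follicles, had a median of 0.42 over 9 genes (7 higher), with Fabp4 and Plin1 both at 0.57.

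Skeletal muscle genes, from the muscle sheet under mouse skin, had a median of 0.50 over 12 genes (9 higher), with wide limits from -1.69 in Myh2 to 1.59 in Myh4. Melanocyte genes had a median of 0.30 over 8 genes (6 higher). Mlana was highest at 0.80 and Oca2 lowest at -0.24. The high glycine-tyrosine median of 1.11 and the high sulfur median of 0.74 were above those of all 8 lists, whereas the ultrahigh sulfur median of 0.45 lay among them.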

How the data were processed

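The deposited series matrix holds the authors' processed values of 33793 probes in 2 columns, control and ZAG. The values, as deposited by the authors, are on a log2 scale, inferred from their range (0.866 to 13.19), and the background correction, normalization and software that made them before deposit are not stated in the labels used here. Per the labels' protocols, sense cDNA was fragmented and labelled with biotin. Column medians were 3.33 and 3.36. Platform annotation gave 52 probes with a single Krtap symbol (51 genes, averaged per gene) and 10 with several symbols; all 51 gene identifiers were in the RefSeq gene table. Differences are ZAG minus control as deposited. Counts of 2-fold genes use genes that reached the median level of all genes in the mean of both arrays. With 1 array per group no test was run, and array number limits the precision. The members, classes, marker lists and background gauge were chosen with earlier results of these data known. Named genes were, per class, the 5 largest and 3 lowest differences and the 3 highest levels, every member at least 2-fold apart or below 0, and up to 3 each way per list; other members were named after their values were seen. The summaries were tested on simulated data. Alternatives were rescaling (median centring, quantile normalization, loess with span 0.3), brightest probe, level filters, 1.5-fold, and adding shared Krtap probes. Software was Python 3.11.15 with pandas 2.3.3, numpy 2.4.6, scipy 1.17.1, matplotlib 3.10.9 and statsmodels 0.14.6.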

Additional observations from a re-analysis of the deposited data

How the results depend on the processing

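Median centring, quantile normalization and loess kept the median difference of all Krtap genes between 0.70 and 0.74, of high glycine-tyrosine genes between 1.07 and 1.10, of high sulfur genes between 0.67 and 0.71 and of ultrahigh sulfur genes between 0.41 and 0.43. The count of Krtap genes at least 2-fold higher was 12 to 13 under these rescalings. The filter on level, which leaves fewer genes, moved medians in both directions. With genes from the 75th percentile of level upward the median was 0.87 over 44 Krtap genes, 0.88 over 7 high sulfur genes, 1.07 for high glycine-tyrosine genes and 0.56 for other families. At or above the background gauge it was 0.88 for high sulfur and 1.07 for high glycine-tyrosine genes. A 1.5-fold threshold, which admits more genes by construction, gave 31 higher Krtap genes, of which 15 were high glycine-tyrosine, 5 high sulfur, 8 ultrahigh sulfur and 3 of other families. At that threshold 5 of 15 hair shaft keratin genes were higher, as were 5 of 12 inner root sheath genes and 2 of 18 regulators. Of the 12 inner root sheath genes, 1 was lower. Among all genes that reached the median level, 2.48% were higher and 5.08% lower by that much. No paired analysis was possible because each group has 1 array. Leaving out Krtap16-1, an alternative chosen after seeing the data, gave a high glycine-tyrosine median of 1.12. Signal near background limits Krtap20-2, Krtap13, Krtap12-1 and Krtap5-5.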
